A study of Macaca mulatta with 30 samples.

Results

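Neurotrophins are secreted growth factors that keep neurons alive, guide their outgrowth and tune their synapses. They are made as precursors and act through Trk receptors, which are tyrosine kinases, and through the p75 receptor, which binds every neurotrophin and, together with sortilin, binds the uncleaved precursors. In the hippocampus BDNF and its receptor TrkB are known for their part in synaptic plasticity, and in the lung neurotrophins and their receptors are known from nerves, airway smooth muscle and mesenchyme.

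The genes described here are 6 members of this system that were chosen by name and not by a rule on their values. Earlier results of these data were known at the time of the choice. The members are the ligands BDNF and NTF3, the Trk receptors NTRK2 (TrkB) and NTRK3 (TrkC), the p75 receptor NGFR, and the sorting receptor SORT1 (sortilin). Each was a single row of both count tables, which made 6 of 30246 gene identifiers in lung and 6 of 32386 in hippocampus. The identifiers were ENSMMUG00000008634 for BDNF, ENSMMUG00000014646 for NTF3, ENSMMUG00000023117 for NTRK2, ENSMMUG00000001386 for NTRK3, ENSMMUG00000014603 for NGFR and ENSMMUG00000005812 for SORT1. All 6 passed the read minimum in both tissues, although SORT1 in hippocampus did so mainly through the group in which it was highest.

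RNA was sequenced from whole tissue of fetal rhesus macaques (labelled wild type) whose mothers had received intramuscular saline or corticosteroid before delivery, in a study that compared the betamethasone drug in clinical use with betamethasone acetate (Beta-Ac) alone. The clinical drug, Celestone, combines betamethasone phosphate and acetate. Lung libraries came from 5 groups of 3 fetuses, labelled with gestational day 124 to 130: saline controls, the clinical drug (0.25 mg/kg) 4 h and 5 days before delivery, and Beta-Ac (0.125 mg/kg) 6 h and 5 days before delivery. Hippocampus libraries came from 3 groups of 5 fetuses at 130 to 136 days of gestation, named CTL (1 mL saline), CEL and BAC, all taken 5 days after treatment. For these libraries the treatment and dose fields give BAC the combined drug at 0.25 mg/kg and CEL the acetate at 0.125 mg/kg, the reverse of the names. The lung labels of the 6 treated animals that have both tissues go with the names, so the names are used, and under the other reading only the drug of each group changes and no value does. Within a tissue each library is a separate fetus, and the 3 lung controls are also CTL replicates 1 to 3. The hippocampus labels give these 3 animals 133, 131 and 135 days, and the 6 treated animals with both tissues 132 to 136 days. These ages lie beyond the lung label of 124 to 130 days, a difference that the labels do not explain. Libraries held 14.1 to 45.0 M reads on genes in lung and 18.3 to 29.3 M in hippocampus.

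Levels are given as CPM, read counts scaled to library size with TMM factors. They are not divided by gene length, so a level is compared between libraries of a tissue and not between genes. Values follow the order of replicates 1, 2, 3 and so on. A gene was called changed at a fold change of at least 1.5, an edgeR p under 0.05 and an adjusted p under 0.1 over all genes tested. Marker genes were as the labels have it: summed lung epithelial markers reached 7240 CPM or more in every lung library, and summed markers of hippocampal excitatory neurons reached 855 CPM or more in every hippocampus library and 7.08 CPM at most in lung. In lung the glucocorticoid target FKBP5 rose from a mean of 5.61 ± 0.296 CPM (SD, n = 3) in controls to 173 ± 49.6 CPM at 4 h after the clinical drug and lay at 6.19 ± 0.449 CPM at 5 days. In hippocampus it lay between 2.26 and 6.55 CPM in all 3 groups.

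In lung, NGFR fell and SORT1 rose 4 h after the clinical drug, and these were the only members called against saline at any time or with either drug. NGFR fell to a fold of 0.440 and SORT1 rose 1.69-fold. BDNF, NTF3, NTRK2 and NTRK3 passed no call in any of the 8 lung comparisons. The call rate over all 17644 genes tested was 7.4% for the clinical drug at 4 h, against 2 of the 6 members. All comparisons with saline share the same 3 controls. The labels give no sequencing run for lung, so effects of run and of treatment cannot be told apart there. All 3 animals taken 4 h after the clinical drug have numbers that begin with 15, as do saline replicates 1 and 2. The numbers of all other lung animals begin with 16 or 17.

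**Figure D1:**
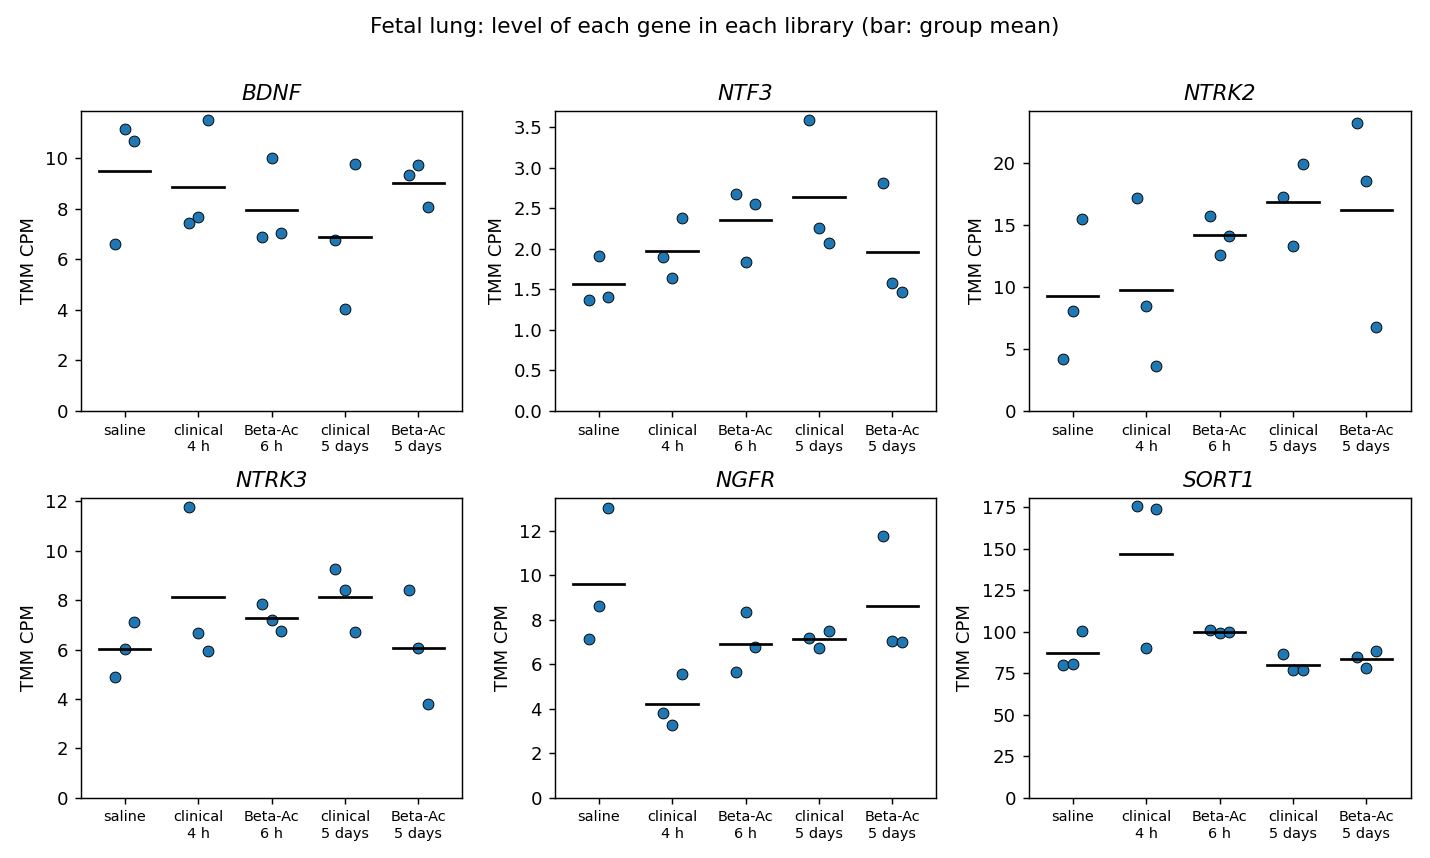
Level of each of the 6 genes (TMM CPM, linear axes from 0) in the 15 lung libraries by group; points are fetuses and bars are group means. NGFR in the 3 libraries taken 4 h after the clinical drug lies between 3.29 and 5.57 CPM, below the other 12 libraries, while SORT1 lies at 174 and 176 CPM in 2 of these 3 libraries.

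BDNF, the ligand of TrkB, was called in none of the lung comparisons. It was at 6.6, 11.2 and 10.7 CPM in the saline libraries. At 4 h after the clinical drug it was at 7.43, 7.70 and 11.5 CPM, and at 6 h after Beta-Ac at 6.88, 10 and 7.04 CPM. At 5 days it was at 6.78, 4.04 and 9.79 CPM after the clinical drug and at 9.34, 9.72 and 8.07 CPM after Beta-Ac. The ranges of all 5 groups overlapped. The fitted fold against saline was 0.935 at 4 h, with a 95% interval of 0.597 to 1.46, and 0.724 at 5 days after the clinical drug, with an interval of 0.462 to 1.13. In the RefSeq annotation the span of BDNF overlaps that of a long noncoding gene. Overlap of exons was not examined and the strand setting of the counting is not given, so whether reads are shared is not known.

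NTF3, the ligand of TrkC, was the member with the lowest number of reads in lung, 22 to 82 per library. Its levels were 1.37, 1.92 and 1.41 CPM in the saline libraries and 3.60, 2.26 and 2.07 CPM at 5 days after the clinical drug. All 3 of these treated libraries lay above all 3 controls, a separation that 12.3% of all genes showed in this comparison. The log2 fold change was 0.76 (SE 0.33), with an unadjusted edgeR p of 0.0386 and an adjusted p of 0.931, so NTF3 was not called. It was the single member with an unadjusted p under 0.05 in this comparison, against 4.39% of all genes, and the call rate was 0% of genes. The other groups were at 1.90, 1.64 and 2.38 CPM (clinical drug, 4 h), 2.68, 1.84 and 2.56 CPM (Beta-Ac, 6 h) and 2.81, 1.58 and 1.47 CPM (Beta-Ac, 5 days), and each of them overlapped the controls. The locus overlaps a long noncoding gene and a further protein-coding gene in the RefSeq annotation.

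NTRK2, the receptor for BDNF, had the widest range of the 6 genes over the lung libraries, 6.39-fold. It was at 4.16, 8.08 and 15.5 CPM in the saline libraries and at 17.1, 8.45 and 3.63 CPM at 4 h after the clinical drug. The 2 groups overlapped over most of their ranges. Levels were 15.7, 12.6 and 14.1 CPM at 6 h after Beta-Ac, 17.2, 13.3 and 19.9 CPM at 5 days after the clinical drug, and 23.2, 18.5 and 6.78 CPM at 5 days after Beta-Ac. The group means at 5 days, 16.8 ± 3.31 and 16.2 ± 8.46 CPM (SD, n = 3), were above that of controls, 9.23 ± 5.74 CPM, but the 95% intervals of the fold ran from 0.821 to 3.99 and from 0.790 to 3.84. At 4 h after the clinical drug the interval, 0.485 to 2.37, held a 2-fold change in either direction.

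NTRK3, the receptor for NTF3, was at 4.88, 6.02 and 7.13 CPM in the saline libraries and at 11.8, 6.65 and 5.95 CPM at 4 h after the clinical drug. Its fold at 4 h was 1.36, with a 95% interval of 0.873 to 2.13. At 6 h after Beta-Ac it was at 7.84, 7.22 and 6.75 CPM, at 5 days after the clinical drug at 9.27, 8.43 and 6.72 CPM, and at 5 days after Beta-Ac at 8.40, 6.06 and 3.80 CPM. All groups overlapped. Clinical drug replicate 1 at 4 h, the deepest lung library, held the highest NTRK3 level of the 15, and this locus also overlaps other annotated genes.

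NGFR, the p75 receptor, was at 7.14, 8.63 and 13.0 CPM in the saline libraries. At 4 h after the clinical drug it was at 3.82, 3.29 and 5.57 CPM. These 3 libraries were the lowest of all 15, and the next was a Beta-Ac library at 6 h with 5.67 CPM. The log2 fold change was −1.19 (SE 0.28), with an edgeR adjusted p of 0.0164. NGFR was the only member whose groups did not overlap in this comparison, against 21.3% of all genes. It stayed called when any 1 of the 15 libraries was left out, with log2 fold changes from −1.44 to −0.90.

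At 6 h after Beta-Ac, NGFR was at 5.67, 8.35 and 6.75 CPM, with a fold against saline of 0.722 and a 95% interval of 0.479 to 1.09. At 5 days it was at 7.19, 6.74 and 7.48 CPM after the clinical drug and at 11.8, 7.02 and 7 CPM after Beta-Ac. Between the early times the clinical drug was lower than Beta-Ac by a log2 fold change of −0.72 (SE 0.28), with an unadjusted p of 0.0235 and an edgeR adjusted p of 0.104, so the difference between the drugs missed the call. The groups also differ in time, 4 h against 6 h. Within the clinical drug, the libraries at 4 h lay below those at 5 days without overlap, as the groups of 29.1% of all genes did, and NGFR was called lower at 4 h with a log2 fold change of −0.76 (SE 0.28, adjusted p = 0.072). That call was lost when either of clinical drug replicates 1 and 2 at 4 h or any 1 of the 3 libraries at 5 days was left out, with adjusted p from 0.112 to 0.208.

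In whole tissue, fewer cells that express a gene and less RNA per cell cannot be told apart. The Schwann cell markers, which name the glia of lung nerves, had 0 of 4 tested genes called at 4 h by edgeR, with 1 at an unadjusted p under 0.05, and summed to 141 to 203 CPM against 163 to 172 CPM in controls. The markers of smooth muscle and pericytes had 0 of 8 called, with 1 at an unadjusted p under 0.05, and summed to 2740 to 3310 CPM against 2990 to 3590 CPM. Of the fibroblast markers 1 of 5 was called, CD34, with a log2 fold change of −0.97. The others ran from −0.13 (PI16) to 0.17 (PDGFRA). Among the endothelial markers KDR was called (−1.16), while CDH5 (−0.43), PECAM1 (0.22) and VWF (0.59) were not. The part of these cell types in the fall of NGFR was not tested.

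SORT1, which carries precursors of neurotrophins and other proteins between the Golgi, endosomes and the cell surface, was the member with the most reads in lung, 1179 to 7600 per library. It was at 80.3, 80.7 and 100.3 CPM in the saline libraries and at 176, 90.3 and 174 CPM at 4 h after the clinical drug. Replicates 1 and 3 stood far above every other lung library, and replicate 2, the library with the lowest depth in lung, lay inside the range of the controls. The log2 fold change was 0.75 (SE 0.19), a 1.69-fold rise with a 95% interval of 1.28 to 2.23 and an edgeR adjusted p of 0.0204. The fold was called in every fit that left out 1 library, with log2 values from 0.59 to 0.99, but not when only these 2 groups were fitted (0.74, adjusted p = 0.128).

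The other lung groups were narrow for SORT1. Beta-Ac at 6 h was at 101, 99.4 and 99.9 CPM, the clinical drug at 5 days at 86.6, 76.8 and 77.2 CPM, and Beta-Ac at 5 days at 84.8, 78.2 and 88.2 CPM. The 3 Beta-Ac libraries at 6 h all lay above the 3 at 5 days, as groups did in 13% of all genes, with a fold of 1.2 that was not called. The clinical drug at 4 h exceeded its own 5-day group by a log2 fold change of 0.88 (SE 0.19, adjusted p = 0.0067), and here too the groups did not overlap. Against Beta-Ac at 6 h it was higher by 0.55 (SE 0.19, adjusted p = 0.0686), a 1.47-fold difference that stayed under the fold threshold. Summed lung epithelial markers were also higher at 4 h, at 12400 to 18500 CPM against 7240 to 10600 CPM in controls. Of 7 genes 2 were called higher (SFTPC and ABCA3). The rest had log2 fold changes from 0.14 (CDH1) to 0.58 (SFTPB) and were not called. Elsewhere the sums were 9440 to 13800 CPM (Beta-Ac, 6 h), 8410 to 11500 CPM (clinical drug, 5 days) and 11000 to 12500 CPM (Beta-Ac, 5 days). The last of these lay above the controls, with a SORT1 fold against saline of 0.961. The part of the epithelium in the rise of SORT1 was not tested.

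Across the lung comparisons the members were called as follows. Beta-Ac at 6 h had 0 of 6 called against saline by edgeR and by DESeq2, with 0 at an unadjusted p under 0.05, where 0.442% of all genes were called. The clinical drug at 5 days had 0 of 6 called by both tools, with 1 at an unadjusted p under 0.05. Beta-Ac at 5 days had 0 of 6 called by both tools and 0 at an unadjusted p under 0.05, where 1 gene of all, 0.00567%, was called. Between the drugs at the early times 0 of 6 were called by edgeR and 1 of 6 (NGFR) by DESeq2, and 2 had an unadjusted p under 0.05. In that comparison 6.74% of all genes were called, 20.7% had an unadjusted p under 0.05, and in 22.4% the groups did not overlap, as for NGFR. Between the drugs at 5 days 0 of 6 members were called by either tool, 0 had an unadjusted p under 0.05, and 0% of genes were called. Between times, 2 of 6 members were called for the clinical drug, where the rate was 10.4% of genes. For Beta-Ac it was 0 of 6 by either tool, 0 at an unadjusted p under 0.05, against 0.261% of genes.

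**Figure D2:**
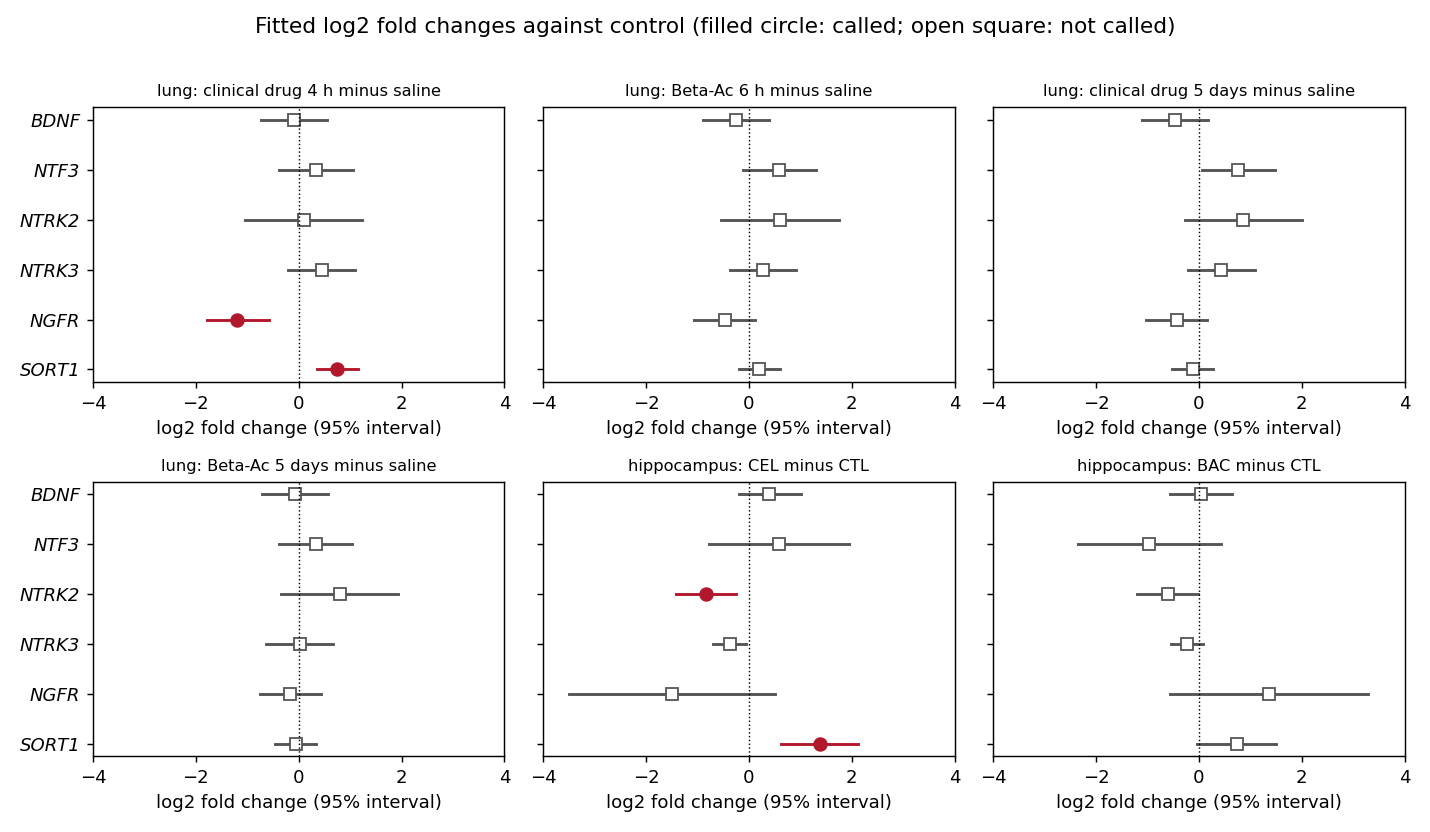
Fitted log2 fold change of each of the 6 genes against the controls of its tissue, with 95% intervals, for the 4 treated lung groups and both treated hippocampus groups; filled circles passed the call and open squares did not. NGFR at −1.19 and SORT1 at 0.75 are the called genes in lung, and NTRK2 at −0.83 and SORT1 at 1.38 those in hippocampus (CEL). The hippocampus SORT1 row passed the read minimum mainly through CEL.

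The rest of the pathway in lung was taken from lists of genes that act with these receptors. At 4 h after the clinical drug 0 of 12 tested rows of the sortilin family and of p75 partners were called by edgeR, with 4 at an unadjusted p under 0.05, and the median log2 fold change was 0.05 against 0.019 over all genes. Of 8 tested genes that cleave precursors or control that cleavage, 1 rose and 0 fell. Of 18 Trk adaptors and proximal signalling genes 1 rose: PIK3R1, a regulatory subunit of phosphoinositide 3-kinase, by 1.32 (SE 0.19, adjusted p = 0.000632). PIK3R1 also rose at 6 h after Beta-Ac, by 0.93 (SE 0.19, adjusted p = 0.0588). Of 7 other neurotrophic receptors 1 fell: GFRA2, a co-receptor for neurturin, from 23.2 to 11.6 CPM (log2 fold change −1.0, SE 0.28, adjusted p = 0.0353).

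GFRA2 was also lower at 4 h after the clinical drug than at 6 h after Beta-Ac, by a log2 fold change of −1.16 (SE 0.28, adjusted p = 0.0232). NTF4, the other ligand of TrkB, was at 2.87 to 4.70 CPM on average in lung and was called in no lung comparison. Of 6 tested genes known to respond to neuronal activity and BDNF, 0 were called at 4 h, with 1 at an unadjusted p under 0.05 by edgeR.

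In hippocampus, 5 days after treatment, NTRK2 was called lower in CEL than in CTL, and no member was called in BAC. SORT1 was also called higher in CEL, on 3 to 8 reads a library in CTL and 11 to 14 in CEL. NTRK2 fell to a fold of 0.562 and SORT1 was 2.60-fold higher at a very low level. The call rate was 7.86% of 17390 genes in CEL and 0% in BAC. SORT1 reached the read minimum in 5 CEL libraries but in 1 CTL library, so its call is not set against that rate, which leaves NTRK2 as the 1 call among the other 5 members. With sequencing run as a covariate neither call remained. The log2 fold change of NTRK2 went from −0.83 to −0.20 (edgeR adjusted p = 0.647). That of SORT1 went from 1.38 to 1.32 (edgeR adjusted p = 0.143).

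**Figure D3:**
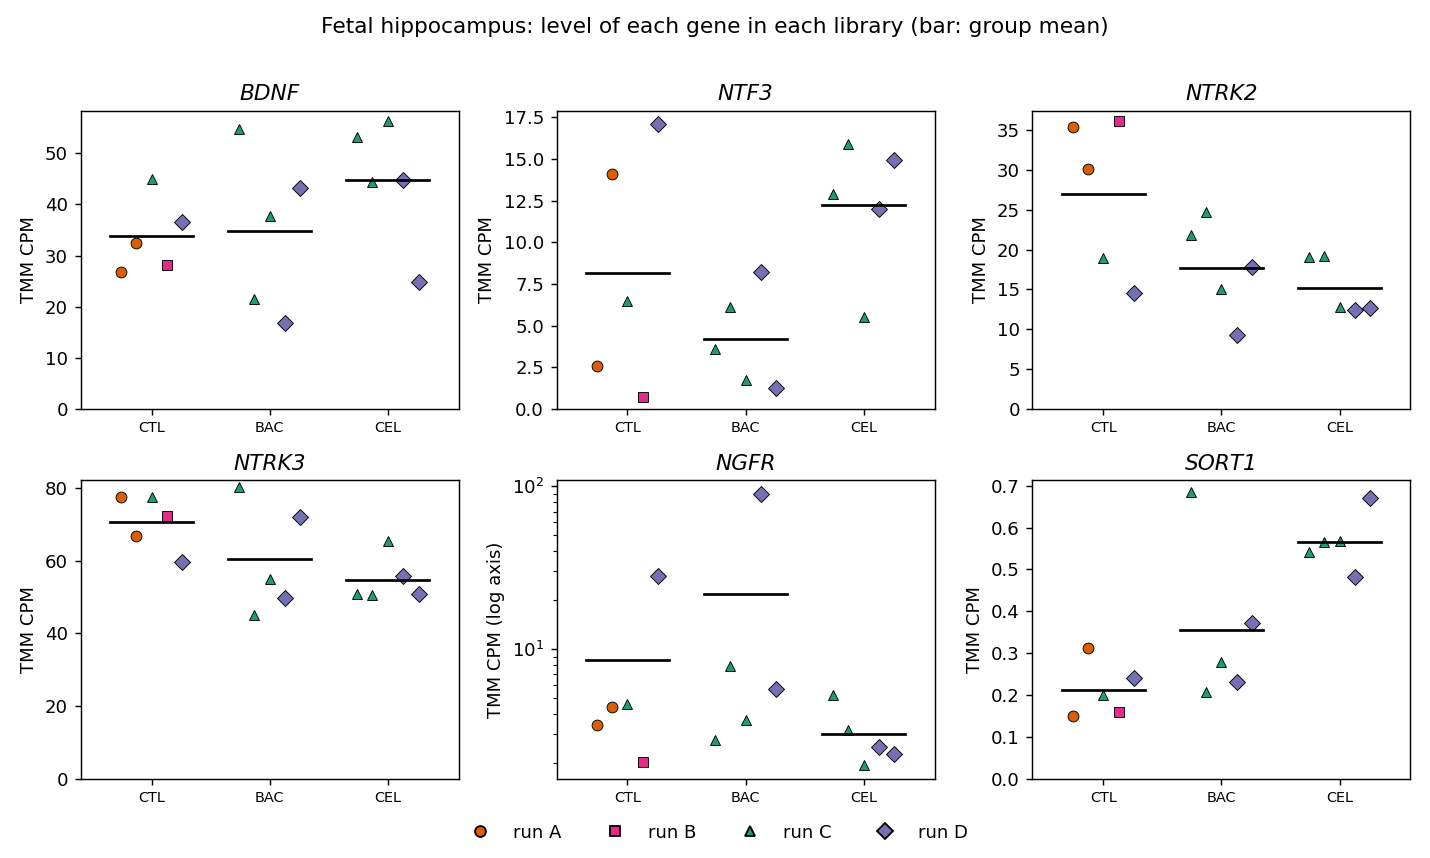
Level of each of the 6 genes (TMM CPM, linear axes from 0 except a log axis for NGFR) in the 15 hippocampus libraries by group; points are fetuses, marked by sequencing run (lettered A to D), and bars are group means. NTRK2 is highest in 3 CTL libraries (30.1 to 36.1 CPM) of runs A and B, which hold controls alone, and NGFR stands out in CTL replicate 5 (28.3 CPM) and BAC replicate 4 (89.8 CPM).

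The sequencing runs bear on every hippocampus comparison. The labels give 4 sequencing runs, here lettered A to D. Run A held CTL replicates 1 and 2, and run B held CTL replicate 4. Run C held CTL replicate 3, BAC replicates 1 to 3 and CEL replicates 1 to 3, and run D held CTL replicate 5, BAC replicates 4 and 5 and CEL replicates 4 and 5. In runs C and D the comparison with CTL thus rests on 1 control each, and those differences are values without a test. With run as a covariate the comparison of CEL with CTL called 958 genes, of which 509 were among the 1366 called without it. Since runs A and B hold controls alone, CTL replicates 3 and 5 are the only controls behind the fold changes of that fit.

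CTL replicate 5 also stood apart in markers of other tissue. The 3 choroid plexus markers with a row, of 6 listed (CLIC6, FOLR1 and OTX2), summed to 902 CPM in it and to 1.43 to 17.9 CPM in the other 14 libraries. The highest of these 14 was BAC replicate 4. Markers of meninges and fibroblasts summed to 1070 CPM in CTL replicate 5 and to 56.4 to 718 CPM in the others. In CEL against CTL, 3 of 3 choroid plexus and 4 of 6 meningeal markers were called lower.

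BDNF in hippocampus was at 26.7, 32.4, 45.1, 28.2 and 36.6 CPM in CTL. It was at 54.8, 21.5, 37.7, 16.8 and 43.2 CPM in BAC and at 53.2, 44.4, 56.4, 44.8 and 24.8 CPM in CEL. Of the CEL libraries 2 lay above every control and 1 below every control. The fold was 1.32 in CEL, with a 95% interval of 0.868 to 2.02, and 1.03 in BAC, with an interval of 0.676 to 1.57. Within runs the log2 difference of CEL from CTL was 0.18 in run C and −0.13 in run D. BDNF was not called, and a change of up to 2-fold upward in CEL lies within its interval.

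NTF3 varied 23.9-fold between the 15 hippocampus libraries. It was at 2.55, 14.1, 6.46, 0.714 and 17.1 CPM in CTL, at 3.58, 6.14, 1.76, 8.19 and 1.25 CPM in BAC, and at 12.9, 15.9, 5.51, 12 and 14.9 CPM in CEL. The controls alone spanned the range of both treated groups. CEL was higher than BAC, with 4 of 5 CEL libraries above all 5 of BAC, by a log2 fold change of 1.55 (SE 0.66). The unadjusted edgeR p was 0.0322 and the adjusted p 0.325, so the difference was not called. Within runs it was 1.6 in run C and 2.01 in run D.

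NTRK2 was at 35.4, 30.1, 19.0, 36.1 and 14.6 CPM in CTL. It was at 19.1, 19.2, 12.8, 12.4 and 12.6 CPM in CEL and at 21.9, 24.7, 15.0, 9.24 and 17.8 CPM in BAC. The 3 highest controls exceeded every treated library, and the other 2 controls lay among them. The log2 fold change was −0.83 in CEL (SE 0.28, edgeR adjusted p = 0.0617) and −0.61 in BAC (SE 0.28, unadjusted p = 0.0439, adjusted p = 0.393). CEL against BAC was −0.22, with a 95% interval of the fold of 0.569 to 1.29.

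The 3 highest NTRK2 controls are those of runs A and B. Within run C the log2 difference of CEL from CTL was −0.18, and within run D it was −0.22. The differences of BAC were 0.08 and −0.19. With run as a covariate the log2 fold change was −0.20 in CEL (edgeR adjusted p = 0.647) and 0.01 in BAC. The call in CEL was also lost on leaving out any 1 of CTL replicates 1, 2 and 4 or CEL replicates 3, 4 and 5, with adjusted p from 0.113 to 0.137. Run and group cannot be told apart for these 3 controls.

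**Figure D4:**
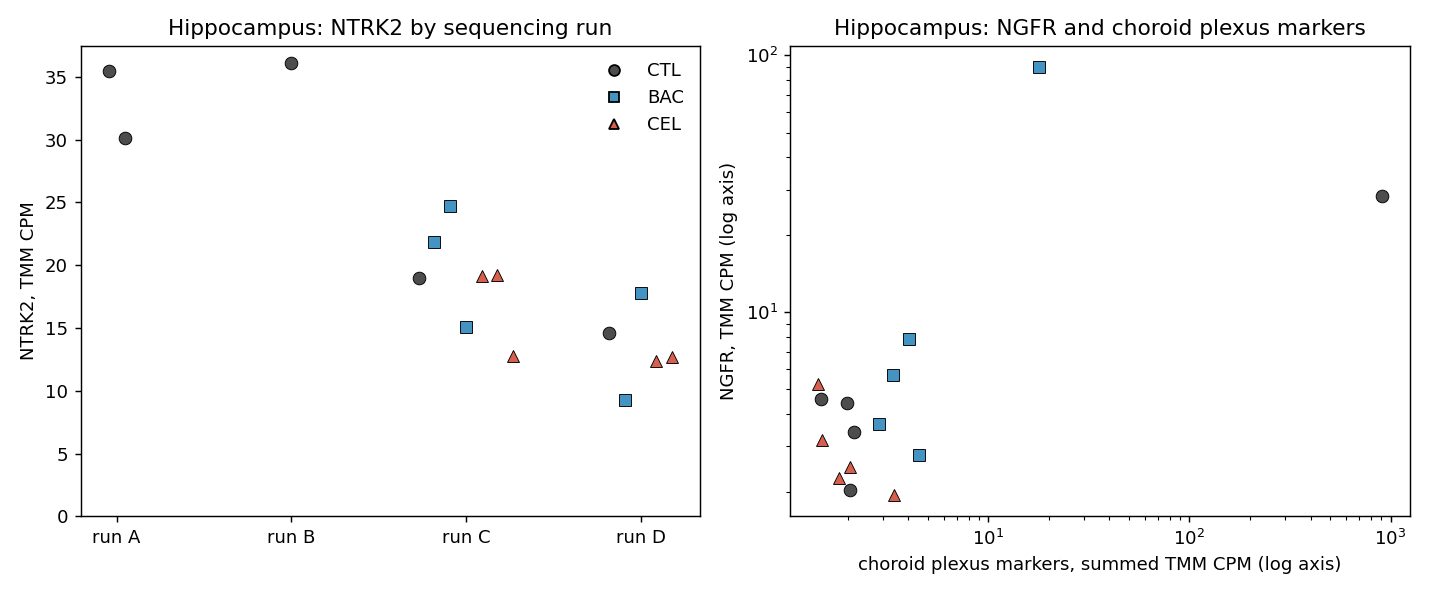
Left, NTRK2 in hippocampus (TMM CPM, linear axis from 0) by sequencing run, with symbols for the 3 groups: the controls of runs A and B lie at 30.1 to 36.1 CPM, those of runs C and D at 19.0 and 14.6 CPM among the treated libraries. Right, NGFR against the summed choroid plexus markers on log axes, 1 point per library: CTL replicate 5 has 902 CPM of the markers and 28.3 CPM of NGFR, and BAC replicate 4 has 17.9 CPM of the markers and 89.8 CPM of NGFR.

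In brain NTRK2 is made by neurons and, largely as a form without the kinase, by astrocytes, and counts per gene do not separate these forms. Of 9 neuronal markers 0 were called in CEL by edgeR, with 0 at an unadjusted p under 0.05, and they summed to 10100 to 12000 CPM against 7180 to 11500 CPM in CTL. Of 8 astrocyte markers 1 was called, AQP4, which was higher by a log2 fold change of 0.93, and the list summed to 4120 to 5370 CPM in CEL against 3100 to 4460 CPM in CTL. The ranges of both lists overlapped between the groups. The part of these cells in the NTRK2 level was not tested.

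NTRK3 was the least variable member in hippocampus, at 77.6, 67.0, 77.6, 72.3 and 59.7 CPM in CTL. It was at 50.8, 50.6, 65.5, 55.8 and 50.8 CPM in CEL and at 80.4, 45.2, 55.0, 49.7 and 72.1 CPM in BAC. Of the CEL libraries 4 lay below every control. The log2 fold change was −0.37 in CEL (SE 0.15, unadjusted p = 0.0224, edgeR adjusted p = 0.101), a fold of 0.772. It was not called, as it met neither the fold threshold nor that of the adjusted p. Within runs it was −0.49 and −0.17. In BAC it was −0.23, with a 95% interval of the fold of 0.688 to 1.06.

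NGFR set 2 hippocampus libraries apart from the rest. It was at 3.40, 4.43, 4.61, 2.02 and 28.3 CPM in CTL, at 2.78, 7.83, 3.66, 89.8 and 5.70 CPM in BAC, and at 5.26, 3.19, 1.94, 2.49 and 2.27 CPM in CEL. CTL replicate 5 and BAC replicate 4 held 707 and 2323 NGFR reads, and the other 13 libraries 44 to 190. CEL was lower than BAC by a log2 fold change of −2.86 (SE 0.97, unadjusted p = 0.00975, edgeR adjusted p = 0.253), which was not called. Without BAC replicate 4 the value was −0.72 with an adjusted p of 0.707, so the size of this difference rests on that library. DESeq2 gave no p for NGFR in this comparison.

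The genes whose hippocampal pattern was most like NGFR over the 15 libraries shared both high libraries. CLYBL (Pearson r = 0.910) was at 11.8 CPM in CTL replicate 5 and 11.2 CPM in BAC replicate 4, and at 1.39 to 3.66 CPM elsewhere. ZIC4 (r = 0.891), a zinc-finger transcription factor, was at 46.4 and 92.1 CPM and at 4.6 to 14.7 CPM elsewhere. MGP (r = 0.890), a matrix protein, was at 11.6 and 43.5 CPM and at 2.06 to 8.82 CPM elsewhere. The choroid plexus markers differed between these libraries, at 902 CPM in CTL replicate 5 and 17.9 CPM in BAC replicate 4. Whether these libraries held tissue beyond hippocampus was not tested.

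SORT1 in hippocampus rested on 3 to 19 reads per library. It was at 0.150, 0.311, 0.200, 0.159 and 0.240 CPM in CTL (3 to 8 reads), at 0.541, 0.566, 0.567, 0.481 and 0.671 CPM in CEL (11 to 14 reads), and at 0.686, 0.206, 0.278, 0.232 and 0.373 CPM in BAC (5 to 19 reads). All 5 CEL libraries lay above all 5 of CTL, a separation that 15.1% of all genes showed. SORT1 passed the read minimum mainly through CEL, so its separation is not set against that rate. The log2 fold change was 1.38 (SE 0.36, edgeR adjusted p = 0.0248), and within runs it was 1.17 and 1.01. With run as a covariate it was 1.32 with an adjusted p of 0.143 and no longer called.

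The read minimum of 7 was reached by all 5 CEL libraries, 2 BAC libraries and 1 CTL library, so this row entered the test through the group in which it was higher, and its call adds no support beyond its values. The same row held 76.8 to 176 CPM in lung. The 2 tables do not list the same genes: 20572 identifiers were in both, 9674 in lung alone and 11814 in hippocampus alone. The gene models behind a row may therefore differ between tissues, and the SORT1 levels of the tissues are not compared.

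BAC against CTL had 0 of 6 members called by edgeR and by DESeq2. NTRK2 alone had an unadjusted p under 0.05, against 12.3% of all genes. CEL against BAC had 0 of 6 called by both tools, with 2 members (NTF3 and NGFR) at an unadjusted p under 0.05 by edgeR, where 0% of genes were called and 13.5% had an unadjusted p under 0.05. All 3 comparisons share groups, and each member's values are given for each above. Without CTL replicate 5 and BAC replicate 4, which was tried after the data were seen, NTRK2 in CEL against CTL was at −0.99 (adjusted p = 0.0105), and BAC against CTL had 0 members called. CTL replicate 5 was the lowest NTRK2 control and the one control of run D, so 3 of the 4 controls left are from runs A and B, which hold no treated library. With run as a covariate over all libraries NTRK2 was at −0.20 (adjusted p = 0.647) and not called.

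Of the receptors related to sortilin and the partners of p75, 2 of 12 tested rows were lower in CEL and 0 higher. They were SORCS3, with means of 26.5 CPM in CEL and 41.1 CPM in CTL (log2 fold change −0.63, SE 0.21, adjusted p = 0.0627), and SORCS2, with 27.0 and 41.1 CPM (−0.60, SE 0.21, adjusted p = 0.0687). Both are sorting receptors of neurons. With run as a covariate their values were −0.37 and −0.56, and neither was called.

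Of 10 genes of precursor cleavage 1 fell in CEL: PCSK6, a proprotein convertase, by −0.97 (SE 0.34, adjusted p = 0.0713), and it remained called with run as a covariate (−1.43, adjusted p = 0.0883). Of 20 Trk adaptors and proximal signalling genes 2 fell and 0 rose. RAPGEF1, an exchange factor of Rap1, fell by 0.61 on the log2 scale (SE 0.12, adjusted p = 0.0139). With run as a covariate its log2 fold change was −0.50 (adjusted p = 0.0916), under the fold threshold. The list's median was 0.02 against −0.019 over all genes.

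Of 9 genes that respond to activity and BDNF 1 rose in CEL: EGR2, an immediate early transcription factor, from a mean of 4.83 to 8.79 CPM (0.86, SE 0.30, adjusted p = 0.0652), and with run as a covariate it was 1.01 with an adjusted p of 0.137. The 7 other neurotrophic receptors had 0 called by edgeR and 0 at an unadjusted p under 0.05. In BAC against CTL none of these lists had a called gene.

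The gene most like BDNF over the 15 hippocampus libraries was FLRT3, an adhesion protein of neurites (r = 0.952), and both were lowest in BAC replicate 4 and highest in CEL replicate 3. Those most like NTRK2 were TP53BP1, NIPA1 and CNTNAP2 (r = 0.942 to 0.944), and CNTNAP2, a neurexin-family protein of axons, was at 100 to 159 CPM in CTL replicates 1, 2 and 4, the libraries of runs A and B, and at 32.8 to 90.0 CPM in the other 12. NTRK3 was most like MEGF10 (r = 0.924), an engulfment receptor of astrocytes, and NTF3 most like RHOBTB1 (r = 0.931). In lung, SORT1 was most like TMEM43 (r = 0.902), which was at 157, 106 and 149 CPM at 4 h after the clinical drug against 76.0 to 91.9 CPM in controls, and NGFR most like CRYL1 (r = 0.885) and MOXD1 (r = 0.880). These correlations are over 15 libraries that share groups, depth and sequencing, and describe likeness of pattern alone.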

How the data were processed

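The deposited files hold raw counts of reads per Ensembl gene, which the authors made by alignment and featureCounts. The submitters' processing notes list Bowtie 1.2.1.1 and featureCounts 1.5.1 for lung, and Bowtie2, featureCounts and edgeR without versions for hippocampus, while the study's methods name Bowtie 2 and the rhesus build MMUL1.0. Strand setting and treatment of reads that map to several genes are not given in the sources used here. Symbols came from an Ensembl gene table. Sequences were not used here.

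A gene was tested if 3 lung libraries, or 5 of hippocampus, held 7 or more of its reads, which left 17644 and 17390 genes. TMM normalization and the quasi-likelihood F-test of edgeR 4.0.16 (R 4.3.3, limma 3.58.1) were run in 1 fit per tissue, with a prior count of 0.125. A call in edgeR's test required a 1.5-fold difference, an unadjusted p below 0.05 and an adjusted p below 0.1 over every tested gene, with adjustment by Storey's q in lung and Benjamini-Hochberg in hippocampus. Likeness was Pearson's r of log2 CPM (prior count 2) over the 15 libraries of a tissue. The tests are two-sided and were checked on simulated counts. Those counts held no effect of sequencing run, so the check does not cover the runs of hippocampus. SORT1 in hippocampus rests on 3 to 19 reads a library, which limits its precision.

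The genes and lists were chosen with earlier results of these data known. Named were the 6 members throughout, list genes that passed a call (some are counted but not reported here by name), the 3 most alike genes of each member, of which some are given, and FKBP5, ZBTB16 and PER1 as label checks, of which FKBP5 is given. Alternatives were RLE normalization, filterByExpr, calls without the fold-change limit, unfiltered genes, exchanged adjustment methods, only the groups compared, DESeq2 1.42.0, each library left out, and for hippocampus sequencing run as a covariate, the 2 runs that hold all groups, and the animals with both tissues.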

Additional observations from a re-analysis of the deposited data

Results flagged for a closer look

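Among 18 sets of 5 hippocampus libraries (6 genes in 3 groups), Dixon's test at the 95% level, which by chance marks about 1 in 20 sets, marked 2, both for NGFR. In CTL, replicate 5 was at 28.29 CPM, and its gap to the next library made up 0.901 of the range of the group. In BAC, replicate 4 was at 89.76 CPM, with a gap of 0.942 of the range. Lung groups of 3 were not examined in this way.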

How the results depend on the processing

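The number of members called against saline 4 h after the clinical drug was 2 under 21 of 22 alternatives and 1 when only those groups were fitted. Leaving out 1 library gave 2 to 2. Between the early times, where 0 were called, 1 was called with no fold-change threshold (SORT1), by DESeq2 (NGFR), and in 4 fits without 1 library (range 0 to 1). Between the clinical drug at 4 h and 5 days, 1 instead of 2 was called with no filter, with the other adjustment, and in 4 fits without 1 library (range 1 to 2). The number thus fell in 6 of 22 alternatives, while NGFR itself lost its call in 7 and SORT1 kept its call in all 22. In 1 fit another member was called in place of NGFR. In hippocampus, CEL against CTL had 2 called, NTRK2 and SORT1, and the SORT1 row passed the read minimum mainly through CEL. The number was 0 with sequencing run as a covariate, in the 2 runs that hold all groups, and in animals with both tissues. It was 1 to 2 without 1 library. BAC against CTL for NTRK2 changed sign with run as a covariate (0.01) and in the 2 runs with all groups (0.1). All other comparisons kept 0 members called under every alternative. The number of all genes called ranged from 884 to 2104 for the clinical drug at 4 h, from 9 to 274 for Beta-Ac at 6 h, from 314 to 2389 between the early times, from 1256 to 3306 between the clinical drug times, from 5 to 182 between the Beta-Ac times, and from 229 to 3816 for CEL against CTL. The comparisons with 0 or 1 gene called had up to 184 under alternatives. No paired analysis was possible because the groups hold different animals and replicate numbers pair none of them.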
